A study of Mus musculus with 22 samples.

Results

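The acetyltransferase inhibitors CPTH2 and Garcinol were compared with the group labelled NC in 6 of the 22 RNA-seq libraries of a series on chromatin inhibitors in mouse embryonic stem cells (ESCs). The 4 compound libraries, 2 for CPTH2 and 2 for Garcinol, were treated as 1 group and set against the 2 NC libraries, with the replicate number as a block, and the genes that both compounds moved in the same direction were then counted. All libraries came from E14, a single established line of ESCs, grown in serum with LIF per the methods of the study. NC was the only group of the 11 whose treatment label names no compound, and what these cells received is not said. Neither a dose nor an exposure time is given for any compound, so CPTH2 and Garcinol could not be matched on either, and values for the compounds are given side by side. Nothing in the labels says that libraries of a group came from separate cultures, and the p-values measure only the spread between libraries of a group. That spread was estimated over all 22 libraries, with the 16 of the other 8 compounds included.

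Histone acetyltransferases transfer the acetyl group of acetyl-CoA to lysines of histone tails, and acetylated histones mark active promoters and enhancers. The enzymes fall into families, of which GCN5 (encoded by Kat2a) with PCAF (Kat2b), and p300 (Ep300) with CBP (Crebbp), are the best known. CPTH2, a thiazole hydrazone, was described as an inhibitor of the GCN5 type of enzyme. Garcinol, a polyisoprenylated benzophenone from Garcinia fruits, inhibits p300 and PCAF. The compounds are not analogs of each other. In ESCs, p300 and CBP sit at the enhancers of pluripotency genes, and the acetyltransferase complexes around KAT5 and KAT8 are needed for self-renewal.

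All 10 fixed ESC markers, Pou5f1, Sox2 and Nanog among them, had values of at least 100 in all 6 libraries. Their sum was 230328 to 231813 in NC and 225437 to 237041 with the compounds. Markers of feeder fibroblasts summed to 749 to 1478 in NC and to 107 to 1211 with the compounds, and Dcn was at 0 in all 6. The sums of the primitive endoderm markers (5953 to 9444 in NC, 5386 to 11398 with the compounds) and of the trophoblast, mesoderm and neural markers overlapped between the groups. The part of these cell types in the results was not tested, and in bulk RNA fewer cells of a type and less RNA per cell cannot be told apart. The 6 libraries correlated across genes at 0.923 to 0.952 on the log2 scale. The lowest values included the pairs of the same compound, with 0.929 between the CPTH2 libraries and 0.932 between the Garcinol libraries, whereas CPTH2 replicate 2 and NC replicate 2 reached 0.949 and Garcinol replicate 2 and NC replicate 2 reached 0.952.

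With CPTH2 and Garcinol pooled, no gene was called against NC. Of 17275 tested genes, 0 (0%) were called in limma's test, which needed a Benjamini-Hochberg adjusted p under 0.05 and more than a 2-fold change, and the lowest adjusted p was 0.487. At an unadjusted p under 0.05 there were 1123 genes (6.5%), 531 higher (3.07%) and 592 lower (3.43%) with the compounds. The data did set limits on the size of a change. The 95% interval of the log2 change lay within a 2-fold change on either side for 13584 genes (78.6%), with a median half-width of 0.35. The result depended on single libraries. Where a group was left with 1 library, its spread came from the other groups, so counts from such fits describe this dependence only. Leaving out NC replicate 1 gave 11 calls and leaving out NC replicate 2 gave 18, while leaving out CPTH2 replicate 1 gave 1. Without the replicate block there were again 0 calls, and 316 genes in place of 1123 had an unadjusted p under 0.05. That count was 267 without NC replicate 1, 607 without Garcinol replicate 1 and 2205 without NC replicate 2.

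The genes nearest to a call on the higher side included cell cycle and signalling genes, and none of them passed the test. Cdkn2b, which encodes the CDK inhibitor p15 (chromosome 4, 89306299 to 89311039, minus strand, mm10), was at 271 and 290 in NC, at 414 and 360 with CPTH2 and at 350 and 356 with Garcinol. The compound libraries all lay above both NC libraries, with a log2 difference of 0.40 ± 0.09 (SE) and a limma p of 0.000473 (adjusted p = 0.766). Ptk2b, the focal adhesion kinase PYK2, was at 222 and 292 in NC, at 424 and 351 with CPTH2 and at 407 and 344 with Garcinol (log2 difference 0.58 ± 0.14, adjusted p = 0.766). Slc4a11, a membrane transporter, was at 516 and 513 in NC, at 920 and 610 with CPTH2 and at 830 and 663 with Garcinol. For this gene and for the transcription factor gene Myb, both compounds were furthest from NC in replicate 1. Myb was at 113 and 97 in NC, at 225 and 120 with CPTH2 and at 231 and 135 with Garcinol. The other genes of the 12 named on this side were Sntg1, described with the on and off genes, Catip, Mcc, Epb41l4a, Jup (the junction protein plakoglobin), Aldh2 (mitochondrial aldehyde dehydrogenase), Cltb (clathrin light chain B) and Ap1m2 (an adaptor subunit for sorting in epithelial cells). Of these 12 genes, 2 (Sntg1 and Catip) had a log2 difference above 1, and the smallest difference was 0.27.

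On the lower side the same held, with no gene called. Cdc25b, a phosphatase that activates cyclin-dependent kinases (chromosome 2, 131186949 to 131198497, plus strand), was at 1438 and 1461 in NC, at 1007 and 1421 with CPTH2 and at 886 and 1117 with Garcinol. CPTH2 replicate 2 was close to NC and the other libraries were below it (log2 difference -0.41 ± 0.11, adjusted p = 0.766). Chl1, a cell adhesion molecule of the L1 family known from neurons, had the largest difference of the 12 named genes on this side. It was at 588 and 659 in NC, at 161 and 247 with CPTH2 and at 124 and 186 with Garcinol, a log2 difference of -1.83 ± 0.52 with an adjusted p of 0.766. Cap2, a regulator of actin filaments, was at 560 and 328 in NC, at 171 and 312 with CPTH2 and at 133 and 282 with Garcinol. Here the replicate 2 libraries of both compounds came near to NC replicate 2. Both Cap2 and Csrnp1 depended on the NC libraries. Without NC replicate 2 their log2 differences were -1.78 and -1.01, and without NC replicate 1 they were -0.25 and -0.16. Pik3c2b, a class II phosphoinositide 3-kinase, was at 673 and 583 in NC, at 486 and 499 with CPTH2 and at 364 and 399 with Garcinol. Actg1, cytoplasmic gamma actin, was at 44923 and 53919 in NC, at 25647 and 41888 with CPTH2 and at 28591 and 36624 with Garcinol. Of its longest transcript, 57.1% of the 31-base stretches also occur in transcripts of other genes, so reads could have been split between them. The other named genes were Chst3, Phtf2, Fam78a, Tbl2, Ankrd44, Csrnp1 and Plekha8, and 3 of the 12 (Chl1, Cap2 and Ankrd44) had a log2 difference below -1.

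**Figure D1:**
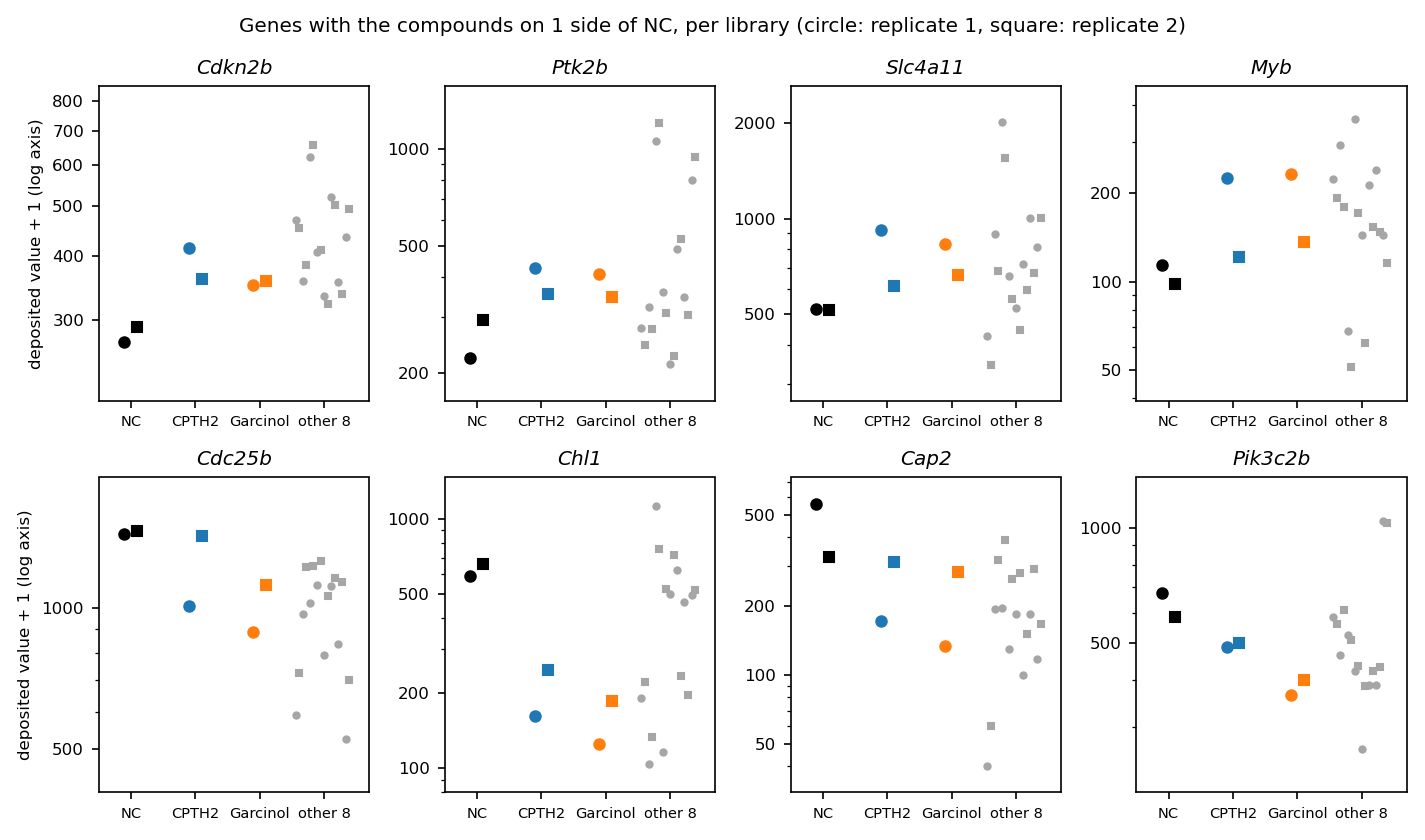
Deposited value + 1 on a log axis for 4 genes that lay higher and 4 that lay lower with both compounds, in NC (black), CPTH2 (blue), Garcinol (orange) and the 16 libraries of the other 8 compounds (grey), with circles for replicate 1 and squares for replicate 2. In Cdkn2b all 16 grey points lie above both NC libraries, and in Cdc25b all 16 lie below both.

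For some of these genes NC also stood at the edge of the whole series, which their choice favours, since it required both NC libraries to lie outside the 4 compound libraries. In Cdkn2b all 16 libraries of the other 8 compounds lay above both NC libraries (322 to 657), and in Cdc25b all 16 lay below both (523 to 1257). In Chl1 the other compounds ranged from 103 to 1128, with 12 of 16 below both NC libraries. At least 12 of the other 16 libraries lay on the same side of NC as CPTH2 and Garcinol for 9 of the 12 genes named as higher and for 10 of the 12 named as lower. Across the 232 genes with a pooled unadjusted p under 0.05 and all 4 compound libraries above both NC libraries, at least 12 of the other 16 were above NC for 122. The same count was 117 of 229 on the lower side. Over all tested genes, at least 12 of the other 16 were above NC for 9.31% and below NC for 11.2%. The 232 and 229 genes tend to have extreme NC values through their choice. The shares over all genes are therefore not their value for no change, and the counts are a description only. A difference particular to NC and an effect that many compounds have in common cannot be told apart here.

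Each of the 1123 genes had the same sign with CPTH2 and with Garcinol, which the choice of genes by their pooled mean favours. An unadjusted p under 0.05 for each compound on its own, in the same direction, was found for 207 genes, of which 117 were higher and 90 lower, and for 2 genes the directions were opposite. These 207 genes made up 45% of the CPTH2 genes at that threshold and 10.2% of the Garcinol genes. Both comparisons used the same 2 NC libraries. The count fell to 49 genes without the replicate block, to 63 without CPTH2 replicate 1, to 98 without Garcinol replicate 1 and to 123 without NC replicate 1, and it was 1055 without NC replicate 2. All 4 compound libraries lay above both NC libraries for 627 genes (3.63%) and below both for 654 genes (3.79%), whatever the p. If the 6 libraries came in random order, each would hold for about 1 gene in 15, and these shares were not tested.

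Where the changes shared no library, little likeness between the compounds was seen. The change of CPTH2 replicate 1 from NC replicate 1 correlated across genes with the change of Garcinol replicate 2 from NC replicate 2 at r = 0.04. The reverse pairing gave r = 0.02. Limited to the 12871 genes with a mean value of at least 100, r was 0.04 and 0.06. The change within replicate number 1 also said little about the change within number 2 for the same compound, with r = 0.01 for CPTH2 and r = 0.08 for Garcinol. Genes are not independent replicates, and these values describe the libraries. Differences from NC were larger within number 1 than within number 2. The median absolute log2 difference from NC was 0.19 in CPTH2 replicate 1 and 0.12 in CPTH2 replicate 2, and 0.26 and 0.15 in the Garcinol libraries.

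No acetyltransferase transcript was called. Of 22 tested acetyltransferase genes, 11 were higher and 11 lower with the compounds pooled, and the median pooled log2 difference was -0.0015, beside -0.01 over all genes. Kat2a, which encodes GCN5, the enzyme type CPTH2 was described against, was at 5087 and 5288 in NC, at 5328 and 5185 with CPTH2 and at 5714 and 5159 with Garcinol. Its log2 difference was 0.04 with a 95% interval of -0.09 to 0.17, so a 2-fold change lay outside the interval. Kat2b, which encodes PCAF, was at 3321 and 2721 in NC, at 3060 and 2563 with CPTH2 and at 2898 and 3241 with Garcinol, with an interval of -0.32 to 0.25. Ep300 was at 6847 and 5723 in NC, at 5685 and 6466 with CPTH2 and at 4159 and 5224 with Garcinol. The Garcinol libraries lay below both NC libraries, and the log2 difference for Garcinol was -0.43 with an interval of -0.88 to 0.03. Crebbp, its close relative, had a pooled interval of -0.37 to 0.25. Kat7, of the MYST family, was at 11226 and 11860 in NC, at 8633 and 13123 with CPTH2 and at 7483 and 9811 with Garcinol. Kat8, the acetyltransferase MOF that acts on histone H4, was at 719 in each NC library, at 834 and 725 with CPTH2 and at 1018 and 795 with Garcinol. With Garcinol alone the log2 difference was -0.43 for Kat7 (interval -0.72 to -0.14) and 0.32 for Kat8 (0.10 to 0.55). In all, 2 of the 22 genes were higher and 3 lower with Garcinol at an unadjusted p under 0.05, and 0 with CPTH2, beside 11.7% and 2.66% of all genes. Of the complex subunits, 0 of 50 were called, with a median of -0.01, and the same held for 0 of 38 deacetylases and corepressors (0.01) and 0 of 27 acetyl-lysine readers (-0.05).

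**Figure D2:**
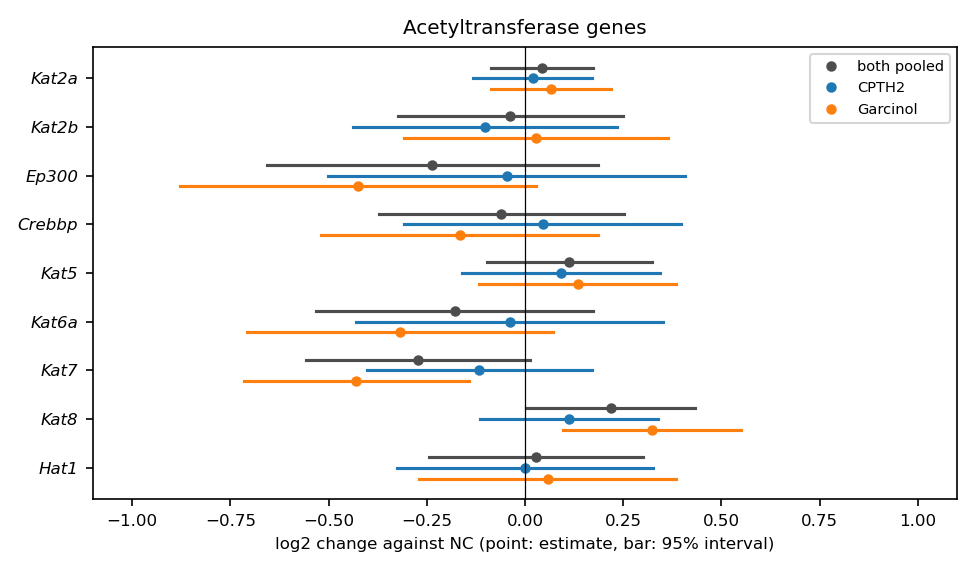
Log2 change against NC of 9 acetyltransferase genes, as estimates (points) with 95% intervals (bars) for both compounds pooled (grey), CPTH2 (blue) and Garcinol (orange). For Kat2a the pooled interval runs from -0.09 to 0.17.

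The list of hypoxia response and glycolysis genes lay below NC with both compounds, and none of its genes was called. Of 22 tested members, 21 were lower with the compounds, and 6 of them had an unadjusted p under 0.05, beside 3.43% of all genes. At that threshold 0 members were lower with CPTH2 alone and 7 with Garcinol alone, beside 1.26% and 6.08% of all genes. The median log2 difference was -0.34, beside -0.01 over all genes. Bnip3, a mitophagy receptor induced by the hypoxia-inducible factor HIF, was at 766 and 512 in NC, at 311 and 387 with CPTH2 and at 255 and 307 with Garcinol. All 4 compound libraries lay below both NC libraries, with a 95% interval of the log2 difference from -1.73 to -0.28. The glycolytic enzyme genes Pfkl, Ldha and Aldoa were among the 6. Pfkl, a phosphofructokinase, was at 5866 and 4020 in NC, at 3086 and 3805 with CPTH2 and at 2515 and 2830 with Garcinol. Ldha, lactate dehydrogenase A, was at 18342 and 15612 in NC, at 9540 and 15924 with CPTH2 and at 8718 and 11077 with Garcinol, and CPTH2 replicate 2 lay between the NC libraries. Egln1 and Egln3, the prolyl hydroxylases that mark HIF for degradation, had log2 differences of -0.59 and -0.47. Egln1 was at 766 and 759 in NC, at 430 and 726 with CPTH2 and at 336 and 626 with Garcinol.

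The size of that difference depended on NC replicate 1. The values of the 22 genes summed to 377624 in NC replicate 1 and to 260364 in NC replicate 2, to 233799 and 280956 with CPTH2 and to 219607 and 226344 with Garcinol. Within replicate number 1 the median log2 difference from NC was -0.54 with CPTH2 and -0.52 with Garcinol, and 21 of 22 genes were lower with each. Within number 2 it was -0.01 with CPTH2, where 12 of 22 were lower, and -0.24 with Garcinol, where 18 were lower. Without NC replicate 1 the pooled median was -0.08, and against the mean of the other 8 compounds it was -0.14.

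**Figure D3:**
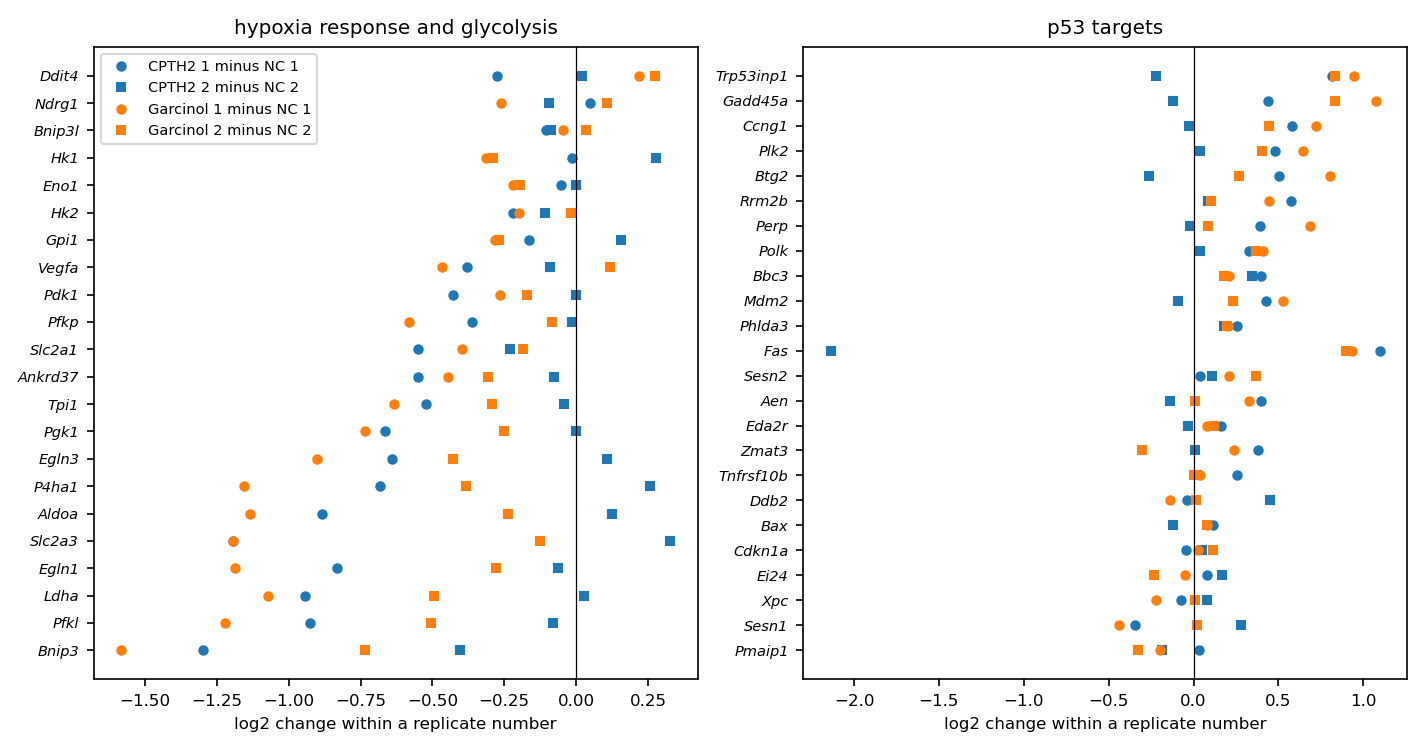
Log2 change within a replicate number for each member of the hypoxia response and glycolysis list (left) and the p53 target list (right), for CPTH2 (blue) and Garcinol (orange), with circles for replicate 1 and squares for replicate 2. On the left the circles lie furthest from 0, with medians of -0.54 and -0.52, and the blue squares scatter around 0 with a median of -0.01.

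Targets of the tumour suppressor p53 leaned higher, again with 0 called. Of 24 members 20 were higher with the compounds, 4 had an unadjusted p under 0.05, and the median log2 difference was 0.19. Over all genes 48% were higher, and 3.07% were higher at that threshold. These 4 were Ccng1 (cyclin G1), Trp53inp1 (a p53-inducible stress protein), Rrm2b (the p53-induced ribonucleotide reductase subunit) and Gadd45a (a DNA damage response gene). At that threshold 0 members were higher with CPTH2 alone and 6 with Garcinol alone, beside 1.4% and 5.65% of all genes. Ccng1 was at 9098 and 8718 in NC, at 13614 and 8544 with CPTH2 and at 15007 and 11842 with Garcinol. Both Garcinol libraries and CPTH2 replicate 1 lay above NC, and CPTH2 replicate 2 lay below it. Trp53inp1 showed the same order, at 6297 and 4394 in NC, at 11077 and 3764 with CPTH2 and at 12129 and 7813 with Garcinol. Cdkn1a, the p21 gene and a main target of p53, was at 6054 and 5364 in NC, at 5869 and 5545 with CPTH2 and at 6168 and 5800 with Garcinol, with a log2 difference of 0.04. Within replicate numbers 1 and 2 the median of the list was 0.35 and 0.01 with CPTH2 and 0.22 and 0.12 with Garcinol. Against the mean of the other 8 compounds it was -0.06.

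Among immediate early genes, which respond within minutes to signals, 5 of 18 were higher and 1 lower at an unadjusted p under 0.05, with 0 called, beside 3.07% and 3.43% of all genes. The same shares apply to the next lists. Jun was at 152 and 118 in NC, at 451 and 137 with CPTH2 and at 310 and 165 with Garcinol, so that the replicate 1 libraries of both compounds stood apart. Egr1, of the same list, was at 17 and 25 in NC, at 6 and 5 with CPTH2 and at 13 and 14 with Garcinol. In the interferon response list 3 of 15 genes (Tap1, Ifitm1 and Irf1) were higher at that threshold. Tap1, a peptide transporter for antigen presentation, was at 64 and 65 in NC, at 130 and 98 with CPTH2 and at 126 and 86 with Garcinol, all above NC. In the list of acetyl-CoA and acetyl carnitine supply, 22 of 26 genes were lower, with a median of -0.11, and 3 (Pdk3, Acaca and Cs) had an unadjusted p under 0.05. The median was 0.07 against the mean of the other 8 compounds, and within replicate number 2 it was 0.03 with CPTH2, where 10 of 26 genes were lower. An unadjusted p under 0.05 was found for 0 of the 26 with CPTH2 alone (2.66% of all genes). With Garcinol alone 4 were lower and 2 higher at that threshold (6.08% and 5.65% of all genes). Acaca, the acetyl-CoA carboxylase, was at 3887 and 5332 in NC, at 3073 and 5260 with CPTH2 and at 2390 and 3631 with Garcinol. CPTH2 replicate 2 lay close to NC replicate 2, and the other compound libraries lay below both NC libraries. For the 24 pluripotency genes the median was 0.02, and the 30 genes of DNA replication and the 24 of mitosis had medians of -0.07 and -0.05. The lowest medians belonged to the 2-cell stage genes (-0.56, 18 tested) and the feeder fibroblast markers (-0.85, 7 tested). The summed values of the 2-cell list did not follow its median. They were 6426 and 6447 in NC, 7035 and 5745 with CPTH2 and 7925 and 7943 with Garcinol. For the 2-cell list the median within replicate number 1 was -1.62 with CPTH2 and -1.35 with Garcinol, and within number 2 it was 0.16 and 0.04. Against the mean of the other 8 compounds the 2-cell median was 0.12 and the feeder median was -0.12. The feeder median was -0.09 without NC replicate 1 and 0.0083 without NC replicate 2, and the 2-cell median was -1.51 without NC replicate 2. Zscan4c, of this list, was at 64 and 66 in NC, at 9 and 87 with CPTH2 and at 23 and 54 with Garcinol, and 91.5% of its 31-base stretches occur in other genes. The lists not described otherwise had medians from -0.26 (early lineage markers, 20 tested) to 0.09 (integrated stress response, 23 tested). In all, 0 genes of the 23 lists, which held 534 tested genes, were called in the pooled comparison.

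**Figure D4:**
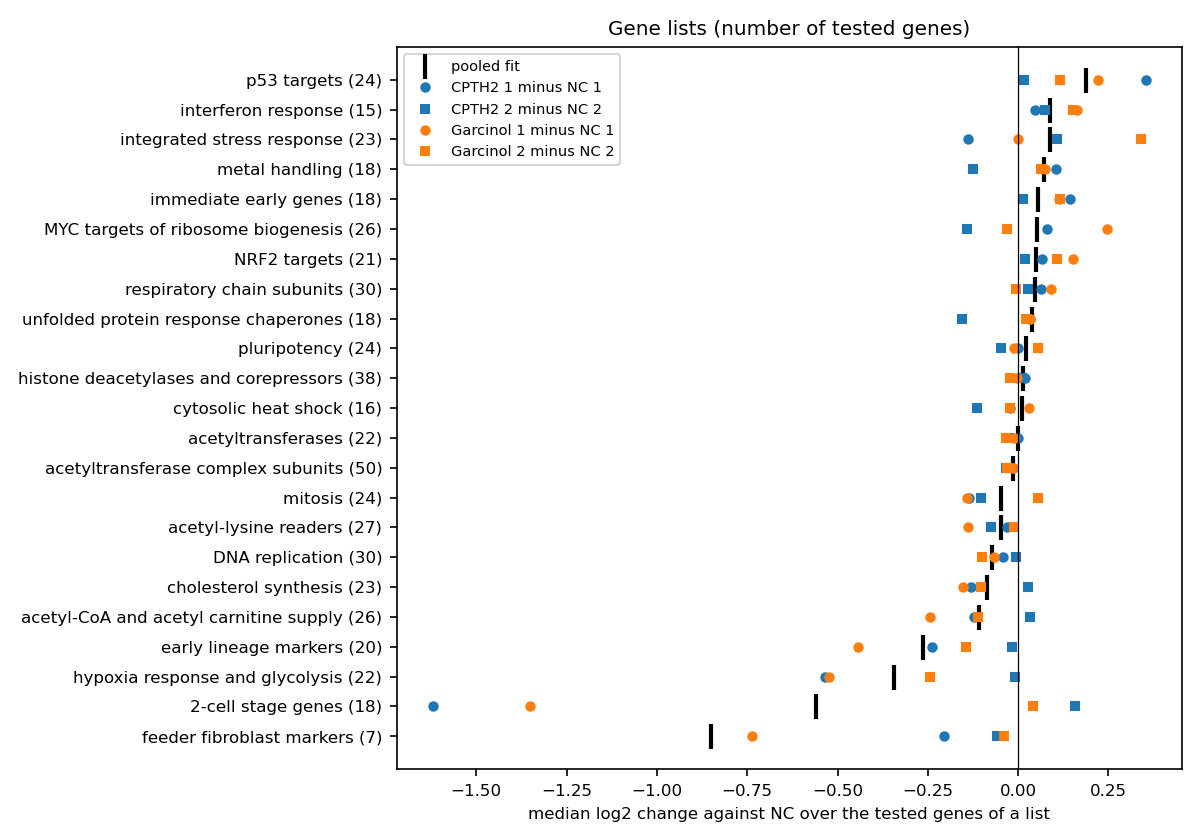
Median log2 change against NC of each of 23 gene lists, with the number of tested genes in brackets, for the pooled fit (black bars) and for each compound within replicate number 1 (circles) and number 2 (squares). Most medians lie near 0, and in the lists furthest to the left the circles lie lower than the squares.

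On its own, CPTH2 gave 1 call of 17275 genes (0.00579%), the vomeronasal receptor gene Vmn2r9, which rose. At an unadjusted p under 0.05 there were 460 genes (2.66%), 242 higher (1.4%) and 218 lower (1.26%). This was the smallest count among the 10 compounds of the series, whose others ran from 2027 genes (11.7%) with Garcinol to 8696 (50.3%) with DZNep. These comparisons share the NC libraries, and the difference between counts was not tested. The counts moved strongly with single libraries. The CPTH2 count was 294 without NC replicate 1, 303 without CPTH2 replicate 1, 1339 without NC replicate 2 and 163 without the replicate block. Without the replicate block the Garcinol count was 625, beside the 163 of CPTH2. The interval of the CPTH2 change lay within 2-fold for 13213 genes (76.5%). Leaving out CPTH2 replicate 1 gave 12 calls and leaving out NC replicate 1 gave 11, while 6 were found without NC replicate 2 and 3 without CPTH2 replicate 2. Among genes above 0 in all 6 libraries, those nearest to a call were Cdkn2b, Tnfaip6, Sntg1 and Ptk2b on the higher side and Kcnh7, Porcn, Chst3 and Ppp1ca on the lower side. Kcnh7, a potassium channel gene, was at 1407 and 1387 in NC, at 1194 and 956 with CPTH2 and at 1347 and 1472 with Garcinol, so that both CPTH2 libraries lay below NC (log2 difference -0.39) and the Garcinol libraries lay on either side of it. Porcn, the enzyme that attaches a lipid to WNT proteins, was at 113 and 188 in NC, at 23 and 112 with CPTH2 and at 28 and 190 with Garcinol. Ppp1ca, a catalytic subunit of protein phosphatase 1, was at 17952 in each NC library and reached 14970 and 16371 with CPTH2, and all 16 libraries of the other 8 compounds lay below NC as well.

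Garcinol also gave 1 call (0.00579%), the unnamed transcript RP23-174E11.2, which rose, but 2027 genes (11.7%) had an unadjusted p under 0.05, 976 higher (5.65%) and 1051 lower (6.08%). RP23-174E11.2 passed the filter of at least 10 in at least 2 libraries only through the Garcinol libraries. Its call is therefore a description of those libraries and not a test. Without NC replicate 2 there were 56 calls, without NC replicate 1 there were 9, without either Garcinol library 7 and without either CPTH2 library 2. The 2027 genes became 463 without NC replicate 1, 3133 without NC replicate 2, 1040 and 1115 without a Garcinol library and 625 without the replicate block. Ciart, a repressor within the circadian clock, was the gene nearest to a call by the naming rule. It was at 362 and 352 in NC, at 365 and 364 with CPTH2 and at 602 and 508 with Garcinol, and the CPTH2 libraries lay just above NC and the Garcinol libraries far above it (log2 difference 0.63, adjusted p of limma 0.379). Gadd45a was at 495 and 438 in NC, at 672 and 402 with CPTH2 and at 1043 and 782 with Garcinol. Nfu1, which helps to assemble iron-sulphur clusters in mitochondria, was at 3587 and 4311 in NC, at 4787 and 4245 with CPTH2 and at 5852 and 5662 with Garcinol. On the lower side were Pik3c2b, Cdc25b, Obsl1 and Tns1. Tns1, the focal adhesion protein tensin 1, was at 1251 and 880 in NC, at 861 and 925 with CPTH2 and at 526 and 551 with Garcinol. Of the 21 targets of NRF2, the factor of the oxidative stress response, 5 were higher and 1 lower with Garcinol at an unadjusted p under 0.05, beside 5.65% and 6.08% of all genes. With CPTH2 there were 0, beside 1.4% and 1.26%, and the difference between these counts was not tested. Hmox1, heme oxygenase 1, was at 1699 and 1685 in NC, at 1453 and 1714 with CPTH2 and at 1998 and 2325 with Garcinol. Of 26 MYC targets of ribosome biogenesis, 17 were higher with Garcinol. Of these, 4 had an unadjusted p under 0.05, beside 5.65% of all genes. The median log2 difference of the list with Garcinol was 0.12, beside -0.003 over all genes. Within replicate number 1 it was 0.25, with 6 of 26 genes lower, and within number 2 it was -0.03, with 14 lower. Dkc1, the pseudouridine synthase dyskerin, was at 6055 and 5165 in NC, at 7760 and 4502 with CPTH2 and at 9272 and 6952 with Garcinol.

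Set directly against each other, with no NC library in the contrast, CPTH2 and Garcinol differed in 2 called genes (0.0116%), which were Vmn2r9 and RP23-174E11.2 again. The latter entered the test only through its high Garcinol libraries. An unadjusted p under 0.05 was found for 1124 genes (6.51%), 530 higher with CPTH2 (3.07%) and 594 higher with Garcinol (3.44%). Without CPTH2 replicate 1 there were 12 calls, without either Garcinol library 8, without CPTH2 replicate 2 there were 5 and without either NC library 4. The interval of the difference lay within 2-fold for 13114 genes (75.9%). Ciart and Gadd45a lay higher with Garcinol, with log2 differences of CPTH2 from Garcinol of -0.60 and -0.80. Orc2, a subunit of the origin recognition complex, was at 2383 and 2613 with CPTH2 and at 3209 and 3406 with Garcinol, with NC between them at 2701 and 2934. Kdm2b, a demethylase subunit that brings a Polycomb complex to CpG islands, was at 2717 and 2838 with CPTH2 and at 2107 and 2237 with Garcinol, and NC was at 2622 and 2616. Srrm1, a splicing factor, was at 22763 and 29399 with CPTH2, at 17912 and 17174 with Garcinol and at 21827 and 21208 in NC. The rule for naming required that the libraries of the compounds did not overlap, and none of these genes passed the adjusted threshold. Part of the 31-base stretches of their longest transcripts also occur in other genes. The share was 25.5% for Ciart, 24.8% for Kdm2b, 22.6% for Orc2, 17.4% for Gadd45a and 6.5% for Srrm1.

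A small group of genes switched between values near 0 and values above 100. Vmn2r9 (chromosome 5, 108835273 to 108852601, minus strand) was at 7 in each NC library, at 472 and 779 with CPTH2 and at 5 and 6 with Garcinol. Its log2 difference was 6.25 for CPTH2 against NC (adjusted p = 2.1e-06) and 6.55 against Garcinol. With only the 6 libraries in the fit the adjusted p for CPTH2 against NC was 0.0841. In 14 of the other 16 libraries it was at 10 or less, and the exceptions were the MS023 libraries, with up to 531. Of its longest transcript, 29.7% of the 31-base stretches occur in other genes, with Vmn2r8 sharing the most, and the value is uncertain for that reason. RP23-174E11.2 was at 1 in both NC and both CPTH2 libraries, at 384 and 517 with Garcinol and at 0 to 1 in the other 16 libraries (log2 difference 7.80 against NC, adjusted p = 0.00308). That p carries no weight, since only the Garcinol libraries brought this transcript past the filter. Values of at most 3 in both NC libraries and of at least 100 in all 4 compound libraries were found for 7 genes, and the opposite for 0 genes. Sntg1, the scaffold protein syntrophin gamma 1, was at 2 in each NC library, at 618 and 761 with CPTH2 and at 669 and 706 with Garcinol. Lamp3, a lysosomal membrane protein, was listed at 0 in NC, at 673 and 507 with CPTH2 and at 278 and 403 with Garcinol. Tenm1 (a teneurin), Zfhx4 (a homeobox zinc finger protein) and the predicted genes Gm35368, Gm38309 and Gm37258 were the others. All 7 were also at 3 or less in at least 1 of the other 16 libraries, in 4 of them for Sntg1 and in 8 for Lamp3. None was called in the pooled comparison over all 22 libraries. When only the 6 libraries entered the fit, all 7 were called as higher, and Gm10705, the eighth gene called, was lower with the compounds.

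**Figure D5:**
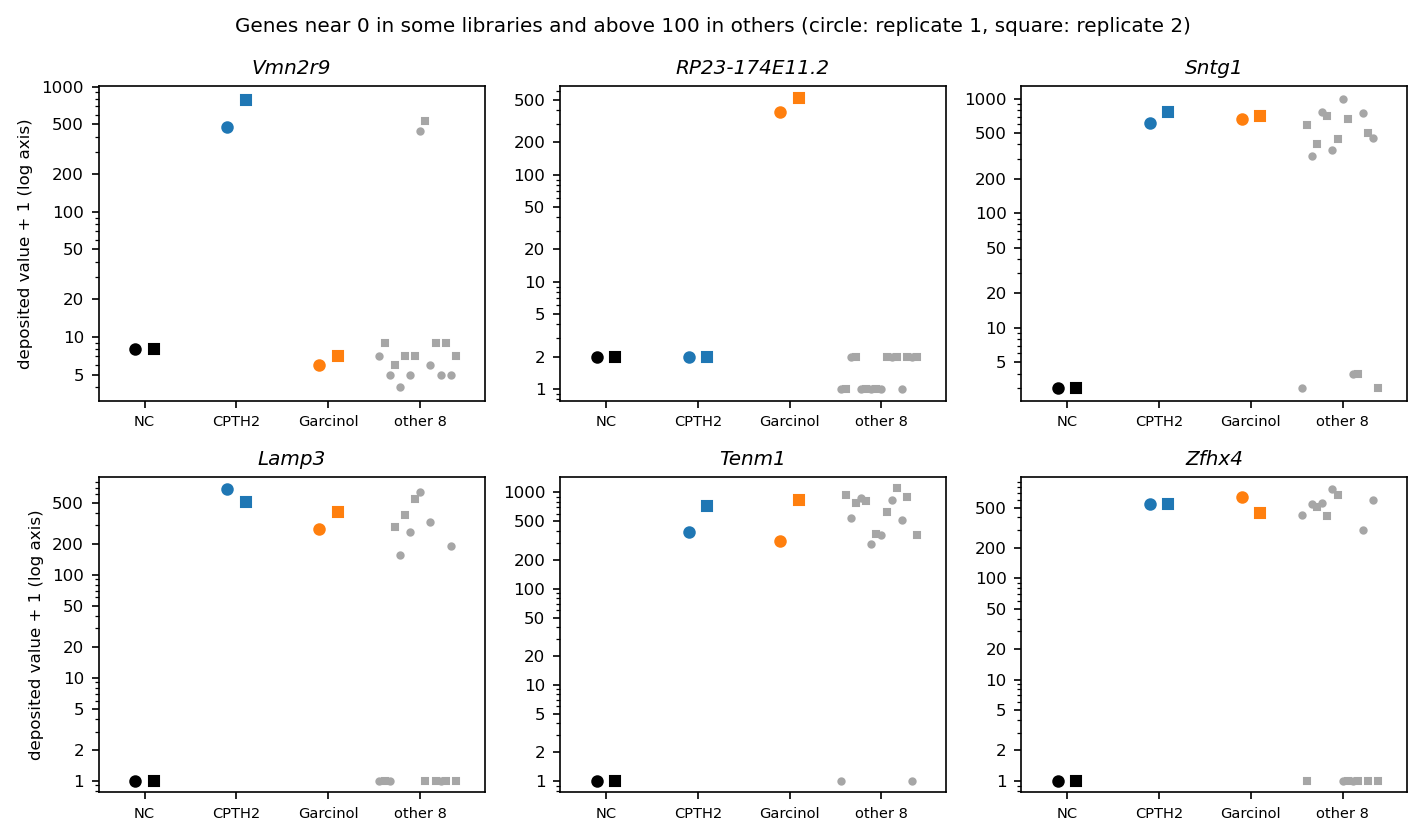
Deposited value + 1 on a log axis for 6 genes that were near 0 in some libraries and above 100 in others, in NC (black), CPTH2 (blue), Garcinol (orange) and the 16 libraries of the other 8 compounds (grey), with circles for replicate 1 and squares for replicate 2. Vmn2r9 is high in the CPTH2 and MS023 libraries, and Sntg1 is near 0 in NC and in 4 grey libraries.

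Against the other compounds the picture differed. With the mean of the other 8 compounds as the reference in place of NC, 137 genes were called for CPTH2 and Garcinol pooled (0.793%), of which 99 were higher and 38 lower. NC lay on the same side of the other 8 as the pool for 134 of these 137 genes, beside 74.7% of all genes, and both sets of differences share the other 16 libraries. The median absolute log2 difference of the 137 genes was 1.27 for the pool against the other 8, 1.12 for NC against the other 8 and 0.37 for the pool against NC. Fgf17, a fibroblast growth factor, was at 874 and 805 in NC, at 1111 and 793 with CPTH2 and at 992 and 690 with Garcinol, and the other 16 libraries had a median of 466.5. Phf19, a Polycomb-associated protein, was at 347 and 320 in NC, at 425 and 310 with CPTH2 and at 348 and 260 with Garcinol, beside a median of 159. Serpinh1, a chaperone of collagen, was at 4328 and 3096 in NC, at 2642 and 3044 with CPTH2 and at 3352 and 3939 with Garcinol, beside a median of 1455. The other 16 libraries ranged from 41 to 1165 for Fgf17, from 30 to 341 for Phf19 and from 255 to 5395 for Serpinh1. They thus overlapped the 6 libraries compared for each of these genes. These 3 genes were chosen after their values were seen.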

How the data were processed

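RNA of E14 ESCs was sequenced after oligo-dT enrichment. The submitters' processing notes name bcl2fastq, Bowtie2 2.2.5, RSEM and mm10. The deposited values are scores, namely read counts per gene that the authors normalized with EDASeq (full quantile, per the methods) and rounded. All 22 libraries have the same median (409) and the same maximum (221616), so depth per library is unknown and a change shared by most genes would be lost. The authors tested with DESeq2, a test for raw counts, and it was not used here. Table columns matched sample titles, with 0 left over. A further deposited table of the authors' group means was not used.

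Log2(value + 1) was analysed with limma 3.58.1 in R 4.3.3 (lmFit, eBayes with trend). Genes with at least 10 in at least 2 of 22 libraries were kept (17275 of 18487). All 22 libraries entered the fit, with CPTH2 and Garcinol as 1 group and the replicate number as a block. Separate contrasts took each compound as its own group. Changes in low genes are understated on this scale. Adjustment was Benjamini-Hochberg, and calls needed an adjusted p under 0.05 and a fold over 2, two-sided. The replicate numbers come from the titles. Differences between replicate 1 and 2 correlated across genes at 0.229 (CPTH2 with Garcinol), 0.167 (CPTH2 with NC) and 0.18 (Garcinol with NC), and the numbers were taken to pair the libraries.

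Up to 12 genes a direction were named by p, and up to 4 for single contrasts. They were protein coding with a given name, above 0 in all 6 libraries, had a larger group mean of at least 100 and had groups that did not overlap. Fixed acetyltransferase and pluripotency genes were named whatever their result. The comparison, the members and the 23 gene lists were chosen with earlier results of these data known. Positions and transcripts came from GENCODE M21 (mm10). The fit was tested on simulated data. Alternatives were a pseudocount of 10, no filter, only 6 libraries, no block, median-ratio rescaling, compounds as separate groups, the other 8 compounds as reference, no variance trend and leaving out each library.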

Additional observations from a re-analysis of the deposited data

Results flagged for a closer look

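In Cdkn2b, CPTH2 replicate 1 (414) stood apart from the other 3 compound libraries (350 to 360) by Dixon's criterion. It was the only such gene of 37 examined, and chance alone gives about 1 in 20. CPTH2 and Garcinol differed in Vmn2r9 by a log2 of 6.55 and in RP23-174E11.2 by -7.80 in the direct test (CPTH2 minus Garcinol). Both genes were near 0 in the NC libraries, and RP23-174E11.2 entered the test only through its Garcinol libraries.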

How the results depend on the processing

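Of 872 pairs of a named gene and an alternative, 833 kept their direction and their side of the threshold and 33 changed direction. Among the others, 5 gained a call and 1 lost it (Vmn2r9 for CPTH2, only 6 libraries). The pooled count of 0 calls became 8 with only the 6 libraries, 1 with the compounds as separate groups (Vmn2r9), 137 with the other 8 compounds as reference and 0 to 18 when 1 library was left out. CPTH2 had 12, then 123 calls with the 6 libraries and with the other 8 as reference, and 1 to 12 with a library left out. Garcinol had 22 and 67, 2 without the variance trend, and 2 to 56 with a library left out. The direct contrast had 21 with the 6 libraries and 4 to 12 with a library left out. The 207 shared genes became 49 without the replicate block, 1443 with the other 8 as reference and 63 to 1055 with a library left out. Listed genes called numbered 4 with the other 8 as reference and 0 to 3 with a library left out. The block changed no count of calls (0, 1, 1 and 2 without it).

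With the other 8 compounds as reference these pooled log2 differences changed sign: Cdkn2b (-0.22), Ptk2b (-0.13), Mcc (-0.16), Jup (-0.084), Chst3 (0.064), Cap2 (0.36), Cdc25b (0.22), Ankrd44 (0.48), Csrnp1 (0.11), Kat2a (-0.0066), Kat2b (0.20), Crebbp (0.021), Kat7 (0.092), Hat1 (-0.0925), Sox2 (-0.070) and Zscan4c (0.68). For CPTH2 these were Cdkn2b (-0.16), Ptk2b (-0.11), Chst3 (0.10) and Ppp1ca (0.022), and for Garcinol Zbtb7b (-0.041), Cdc25b (0.0905) and Obsl1 (0.26). With 1 library left out, pooled log2 differences crossed 0 within -0.0235 to 0.11 for Kat2a, -0.16 to 0.087 for Kat2b, -0.48 to 0.008 for Ep300, -0.14 to 0.023 for Crebbp, -0.039 to 0.26 for Kat5, -0.023 to 0.064 for Hat1 and -0.071 to 0.0014 for Pou5f1. Of 322 pairs of a list median and an alternative, 33 moved by more than the spread, 15 of them with the other 8 compounds as reference, where 12 of 23 medians took the other sign. The cause of these changes was not tested, apart from the change of reference itself. Where a group was left with 1 library, its spread was taken from the other groups.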
